A study of Homo sapiens with 12 samples.

Results

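The comparison described here set COV362 cells that had been exposed to 250 nM THZ1 for 6 hr against COV362 cells given the vehicle DMSO for the same time. It was chosen as 4 of the 12 libraries of the study, namely the DMSO and the 250 nM THZ1 libraries of COV362, 2 of each, with all 23621 gene rows of the COV362 table and without its 92 rows of synthetic ERCC spike-in RNA. The other libraries were 2 of COV362 at 50 nM THZ1 and 6 of a second line, KURAMOCHI, under the same 3 treatments. COV362 is an established human ovarian cancer cell line, all of its libraries were of cells the labels call an untransduced control, and the cells were grown in DMEM with fetal bovine serum. The replicates were labelled replicate 1 and replicate 2, no source used here states that they were separate cultures, and p-values therefore measure the spread between these libraries, which may be technical.

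The compound THZ1 binds CDK7 covalently and blocks its activity, and CDK12 and CDK13 are inhibited by THZ1 as well. CDK7 is the kinase of the general transcription factor TFIIH and, with cyclin H and MNAT1, activates the kinases of the cell cycle. CDK7 phosphorylates RNA polymerase II as it leaves the promoter, CDK9 releases the paused polymerase, and CDK12 and CDK13 act during elongation. When transcription is blocked, an mRNA level follows the lifetime of the mRNA already made, and the mRNAs of immediate early, inflammatory and mitotic regulators are in general short lived, whereas those of ribosomal proteins and metabolic enzymes are in general long lived.

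Expression was measured in polyA RNA as FPKM (fragments scaled to transcript length and to the mapped reads of the library), which the authors had rescaled to the spike-ins added in proportion to cell number, so a level stands for RNA relative to cells. The FPKM values summed to 1472390 and 1686570 in the 2 DMSO libraries and to 758681 and 764273 in the 2 libraries at 250 nM. Read counts are not in these values, and library depth is therefore unknown. In each of these 4 libraries 4896 gene rows stood at 1 shared low level of 0.0943 to 0.110 FPKM, here called the floor. Over the 48 spike-ins above 1 FPKM in each library, the median log2 deviation from DMSO was 0.0093 and 0.041 at 250 nM. The values had been rescaled to these spike-ins, so a median near 0 is built in and does not test the scale. The SD of the deviations across spike-ins was 0.128 and 0.168 at 250 nM. The 2 DMSO libraries differed by a median of 0.123 on the log2 scale and the 2 treated libraries by 0.0989. Of 20 epithelial and serous ovarian markers, 19 were above 1 FPKM in both DMSO libraries, WT1 at 0.565 and 0.741 FPKM being the exception. Of 12 markers of fibroblasts, immune and endothelial cells, 4 were above 1 FPKM in both DMSO libraries, namely COL1A2 (40.4 and 44.1 FPKM), CDH5 (7.5 and 8), CD68 (3.71 and 4.53) and COL1A1 (3.13 and 3.20), while the fibroblast genes DCN and LUM and the T cell gene CD3E were at the floor in all 4 libraries.

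At 250 nM the level of nearly every active gene was lower than in DMSO (see the plot of change against DMSO level). A gene was counted as active when it exceeded 1 FPKM in at least 1 of the 12 libraries, which held for 14251 genes. A gene was called when the limma test on log2(FPKM + 1), fitted to the 6 COV362 libraries, gave a Benjamini-Hochberg adjusted p under 0.001 with a log2 fold change beyond 0.5 in size. On this scale the changes of low genes are understated. In bulk RNA, less RNA in every cell and loss of RNA from some of the cells cannot be told apart. By this rule 11971 genes (84% of those tested) were called lower, 15 genes (0.105%) were called higher and 2265 were not called. The median log2 fold change of the active genes was -1.31, and it ran from -1.37 to -1.25 over the 4 pairings of a treated with a DMSO library. The middle portion of the genes, between the quartiles, lay from -1.86 to -0.86. A log2 fold change below -1 was found in 9611 genes (67.4%), below -2 in 2901 (20.4%), below -3 in 455 (3.19%) and below -4 in 55. Both treated libraries were below both DMSO libraries in 95.6% of the active genes and above both in 0.54%.

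The scale decides how these counts read. A median-of-ratios scaling, which assumes that the typical gene keeps its level, gave the treated libraries log2 scaling factors of -1.56 and -1.58 relative to DMSO, and the median log2 fold change became -0.02. On that scale 2842 genes (19.9%) were lower and 1064 (7.47%) were higher, and 866 of the genes higher there had been called lower relative to the spike-ins. All changes below are on the spike-in scale unless the other scale is named. For named genes and list medians in COV362, a direction that the other scale turns is given with its value there. Counts of list members called lower read against 84% of all active genes, 96.8% of those of 10 to 30 FPKM in DMSO, 97.4% of those of 30 to 100 FPKM and 96% of those of 100 to 300 FPKM.

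**Figure D1:**
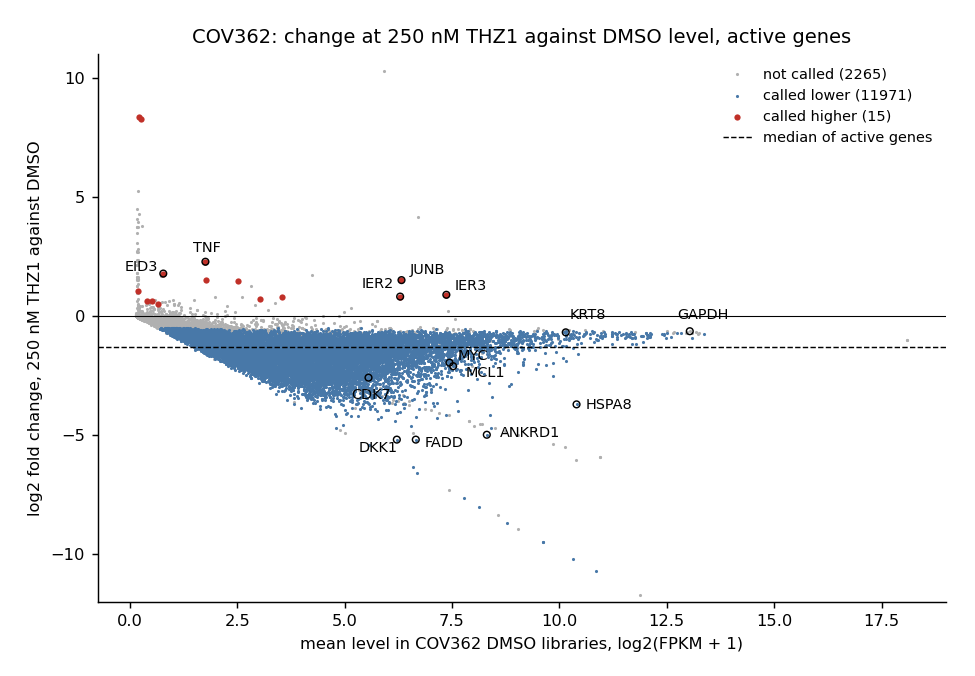
Each point is 1 of the 14251 active genes, with its mean log2(FPKM + 1) in the 2 DMSO libraries of COV362 on the horizontal axis and its log2 fold change at 250 nM THZ1 on the vertical axis. The 11971 genes called lower fill the space below 0, the 15 genes called higher are in red, the dashed line is the median of -1.31, and open rings mark the labelled genes.

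Immediate early and inflammatory genes were among the genes that rose at 250 nM. Of the 15 genes called higher, 8 had a mean of at least 1 FPKM in DMSO, namely TNF, CXCL3, CXCL2, JUNB, IER3, IER2, ZFP36 and EGR1. TNF encodes the cytokine tumour necrosis factor, CXCL2 and CXCL3 encode chemokines that attract neutrophils, and JUNB encodes a subunit of the transcription factor AP-1. IER2 and IER3 are immediate early response genes, ZFP36 encodes tristetraprolin, a protein that binds AU-rich elements and speeds mRNA decay, and EGR1 encodes a zinc finger transcription factor induced by serum. The 8 genes also had higher levels on the median-of-ratios scale, where their log2 fold changes were between 2.21 and 3.79.

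TNF (chr6:31543342-31546113, hg19, plus strand) measured 2.69 and 2.09 FPKM in DMSO, 3.85 and 5.56 at 50 nM and 15.8 and 15 at 250 nM. The 3 treatments did not overlap, and the rise at 250 nM was 2.28 ± 0.165 (log2 fold change ± SE, n = 2 against 2, limma adjusted p = 7.48e-06). JUNB (chr19:12902300-12904129, plus strand) measured 76.2 and 82.1 FPKM in DMSO, 124 and 112 at 50 nM and 205 and 250 at 250 nM, a rise of 1.51 ± 0.116 (limma adjusted p = 1.02e-05). The JUNB levels also stepped up with dose without overlap. CXCL3 (chr4:74902306-74904524, minus strand) went from 2.01 and 2.82 FPKM in DMSO to 8.85 and 8.48 at 250 nM, a rise of 1.51 ± 0.191 (limma adjusted p = 0.000148). CXCL2 (chr4:74962757-74964913, minus strand) went from 5.70 and 3.80 FPKM to 15.3 and 13.8, a rise of 1.46 ± 0.162 (limma adjusted p = 7.19e-05), with 5.45 and 5.44 FPKM at 50 nM, inside the DMSO range.

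IER3 (chr6:30710976-30712325, minus strand) differed in that its level at the lower dose was below DMSO: 160 and 168 FPKM in DMSO, 114 and 108 at 50 nM and 299 and 311 at 250 nM. IER3 was called lower at 50 nM (-0.56) and higher at 250 nM (0.89 ± 0.079, limma adjusted p = 2.1e-05). IER2 (chr19:13261225-13265725, plus strand) measured 74.7 and 80.1 FPKM in DMSO and 129 and 145 at 250 nM, a rise of 0.81 ± 0.101 (limma adjusted p = 0.000129). ZFP36 (chr19:39897487-39900052, plus strand) went from 10.5 and 11 FPKM to 18.5 and 19.9 (0.78 ± 0.116, limma adjusted p = 0.000365). EGR1 (chr5:137801168-137804992, plus strand) went from 7.40 and 6.96 FPKM to 12.1 and 12.6 (0.71 ± 0.1, limma adjusted p = 0.000285), after 4.89 and 4.32 FPKM at 50 nM. In each of these genes both treated libraries were above both DMSO libraries. The calls of ZFP36 and EGR1 were the least secure, since each was lost when any 1 of the DMSO or 250 nM libraries was left out. The calls of CXCL3 and IER2 were lost only without DMSO replicate 1, and those of TNF, JUNB, CXCL2 and IER3 were kept without each of the 6 libraries in turn.

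The promoters of these genes show which control elements of immediate early and inflammatory genes lie next to their start sites. The RefSeq promoter table (build GRCh38.p14, 250 bases before to 50 after the start) matched 7 of the 15 genes called higher by symbol, and these 7 were searched for motifs. TCTEX1D4 is listed there under a newer symbol and was not searched. Capitals mark the matches, and each sequence is 300 bases written 5′ to 3′ along the gene. CXCL2 (chr4:74099146-74099445, minus strand) and CXCL3 (chr4:74038640-74038939, minus strand) are shown because each holds a pair of matches to the NF-kB motif in the same arrangement.
CXCL2: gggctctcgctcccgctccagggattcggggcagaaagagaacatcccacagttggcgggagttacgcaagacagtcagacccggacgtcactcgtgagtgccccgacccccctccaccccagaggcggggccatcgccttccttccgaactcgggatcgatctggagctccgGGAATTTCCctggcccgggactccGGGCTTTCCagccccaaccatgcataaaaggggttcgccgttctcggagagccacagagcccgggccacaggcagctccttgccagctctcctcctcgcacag
CXCL3: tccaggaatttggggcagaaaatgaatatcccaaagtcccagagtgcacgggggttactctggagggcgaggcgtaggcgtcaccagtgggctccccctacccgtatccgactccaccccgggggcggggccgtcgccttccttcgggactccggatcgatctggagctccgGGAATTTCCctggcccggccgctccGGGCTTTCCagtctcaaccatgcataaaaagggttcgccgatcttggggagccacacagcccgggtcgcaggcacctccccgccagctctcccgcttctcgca
TNF (chr6:31575315-31575614, plus strand) and JUNB (chr19:12791236-12791535, plus strand) are shown for the TATA box before the start.
TNF: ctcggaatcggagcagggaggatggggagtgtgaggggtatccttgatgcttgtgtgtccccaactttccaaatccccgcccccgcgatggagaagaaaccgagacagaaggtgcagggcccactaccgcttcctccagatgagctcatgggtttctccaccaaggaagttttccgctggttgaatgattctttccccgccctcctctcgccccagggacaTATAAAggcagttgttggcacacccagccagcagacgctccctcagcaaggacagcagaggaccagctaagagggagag
JUNB: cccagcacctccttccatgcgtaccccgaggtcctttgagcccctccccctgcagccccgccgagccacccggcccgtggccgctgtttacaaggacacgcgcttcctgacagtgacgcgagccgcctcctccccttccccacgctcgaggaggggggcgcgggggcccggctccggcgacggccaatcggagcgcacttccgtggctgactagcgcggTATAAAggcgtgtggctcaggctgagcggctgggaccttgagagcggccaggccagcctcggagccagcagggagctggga
EGR1 (chr5:138465229-138465528, plus strand) is shown for its CArG boxes, the sites of serum response factor.
EGR1: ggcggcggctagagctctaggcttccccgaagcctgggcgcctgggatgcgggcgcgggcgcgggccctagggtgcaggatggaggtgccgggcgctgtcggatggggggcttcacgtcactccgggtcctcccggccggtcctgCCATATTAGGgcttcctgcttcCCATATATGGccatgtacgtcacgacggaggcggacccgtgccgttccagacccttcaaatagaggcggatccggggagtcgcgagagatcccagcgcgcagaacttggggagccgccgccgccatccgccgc

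The TATA box (TATAAA) was in 2 of the 7 promoters, against 12% of all 27305 promoters in the table and 5.57% of the 10050 promoters of active genes. The NF-kB motif (GGNNTTTCC) was in 2 of the 7, CXCL2 and CXCL3, against 6.26% of all promoters and 6.76% of active ones. The CArG box was in 1 of the 7, against 1.29% and 1.08%. The AP-1 site (TGACTCA), the cAMP response element (TGACGTCA), the E-box (CACGTG) and the heat shock element (GAANNTTC) were in 0 of the 7, against 3.17%, 3.20%, 10.2% and 4.78% of active promoters. Both strands were searched, and the NF-kB motif and the CArG box were added after the rising genes were known. The promoters of IER2 and ZFP36 held no match in this window.

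The remaining genes called higher were at low levels or were rows of very short RNA. EID3, a gene without introns (chr12:104697517-104698983, plus strand), measured 0.787 and 0.645 FPKM in DMSO, 8.67 and 10.9 at 50 nM and 4.89 and 4.90 at 250 nM. Its rise at 250 nM was 1.78 ± 0.124 (limma adjusted p = 6.38e-06), and it had been called higher at 50 nM as well (2.64). GAS5-AS1 (0.63), TCTEX1D4 (0.61), TGIF2-C20orf24 (1.05) and MSH5-SAPCD1 (0.52) were below 1 FPKM in both DMSO libraries and between 0.911 and 1.86 FPKM at 250 nM, and none kept its call throughout when libraries were left out singly. The call of TCTEX1D4 was lost without any 1 of the DMSO or 250 nM libraries, that of TGIF2-C20orf24 without either DMSO library, that of MSH5-SAPCD1 without these or replicate 1 of 250 nM, and that of GAS5-AS1 without DMSO replicate 2 or replicate 1 of 250 nM. TGIF2-C20orf24 and MSH5-SAPCD1 are readthrough transcripts that share exons with their component genes, so their FPKM depend on how reads were divided, and GAS5-AS1 is antisense to GAS5, with the use of strand in counting not given in the sources used here. MIR3648 and MIR4644 are the remaining 2 and are described with the small RNA rows.

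**Figure D2:**
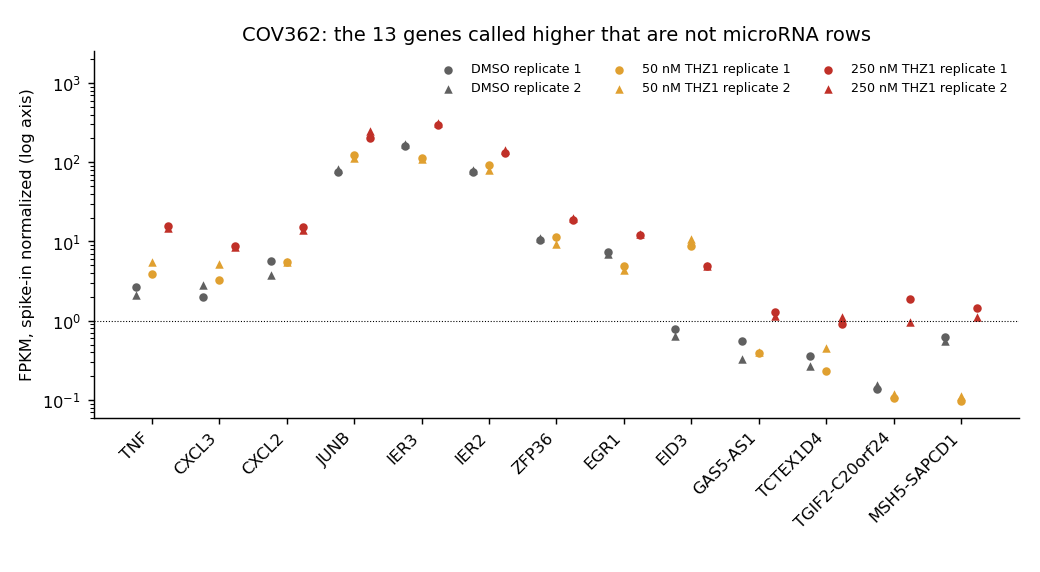
FPKM on a log axis in each of the 6 COV362 libraries for the 13 genes called higher that are not microRNA rows, with circles for replicate 1, triangles for replicate 2 and a dotted line at 1 FPKM. TNF climbed from 2.69 and 2.09 to 15.8 and 15 FPKM, IER3 dipped at 50 nM before its rise at 250 nM, and EID3 was highest at 50 nM.

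The rising genes were a minority within their own families. Of 9 AP-1 genes tested, 1 was called higher (JUNB), 5 were lower and 3 were not called, with a list median of -1.33 beside -1.31 for all active genes and 0.12 on the median-of-ratios scale. FOSL1 fell from 320 and 338 FPKM to 44.4 and 46.8 (-2.82), and FOSL2 fell from 40.0 and 42.8 to 4.33 and 4.71 (-2.94). JUN (-1.42) and JUND (-1.65) were also called lower, although JUN was at 0.12 and not called on the median-of-ratios scale. FOS, the partner of the JUN proteins, measured 3.45 and 4.15 FPKM in DMSO and 5.63 and 5.25 at 250 nM, which did not overlap but did not pass the test (0.43 ± 0.113, limma adjusted p = 0.00799). FOSB and ATF3, at 0.18 and -0.86, lay between these extremes, and of them ATF3 was called lower, its value being 0.61 on the median-of-ratios scale and its call being lost without either DMSO library and without replicate 2 of the 250 nM libraries.

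Among 14 other immediate early genes, 4 were called higher (IER3, IER2, ZFP36 and EGR1) and 10 were called lower, and the list median was -1.52 (-0.25 on the median-of-ratios scale). The transcription factor KLF4 had the lowest value, falling from 18.2 and 18.7 FPKM to 2.10 and 2.20 (-2.62). The 15 genes of NF-kB feedback and chemokines divided in the same way, with 3 higher (TNF, CXCL2 and CXCL3), 11 lower and 1 not called, and a list median of -2.06 (-0.53 on the median-of-ratios scale). BIRC3, an inhibitor of apoptosis induced by TNF, fell from 24.2 and 27.2 FPKM to 1.28 and 1.15 (-3.59 ± 0.138, limma adjusted p = 9.29e-07). TNFAIP3, which encodes the A20 brake on NF-kB, fell from 46.3 and 51.5 to 3.99 and 3.98 FPKM (-3.32), RELB fell by 3.28 and NFKBIA by 1.91 on the log2 scale. The chemokine genes themselves went different ways: CCL2 fell from 387 and 445 to 106 and 91.2 FPKM (-2.06) and IL8 from 130 and 151 to 35.4 and 27 FPKM (-2.14). CXCL1, the close relative of CXCL2 and CXCL3, measured 25.9 and 26.5 FPKM in DMSO and 15.5 and 15.4 at 250 nM and was not called (-0.72, and 0.79 on the median-of-ratios scale), although it was called lower without either 50 nM library. CXCL1, CXCL2 and CXCL3 are similar in sequence, and reads shared among them would be divided by the authors' quantification.

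**Figure D3:**
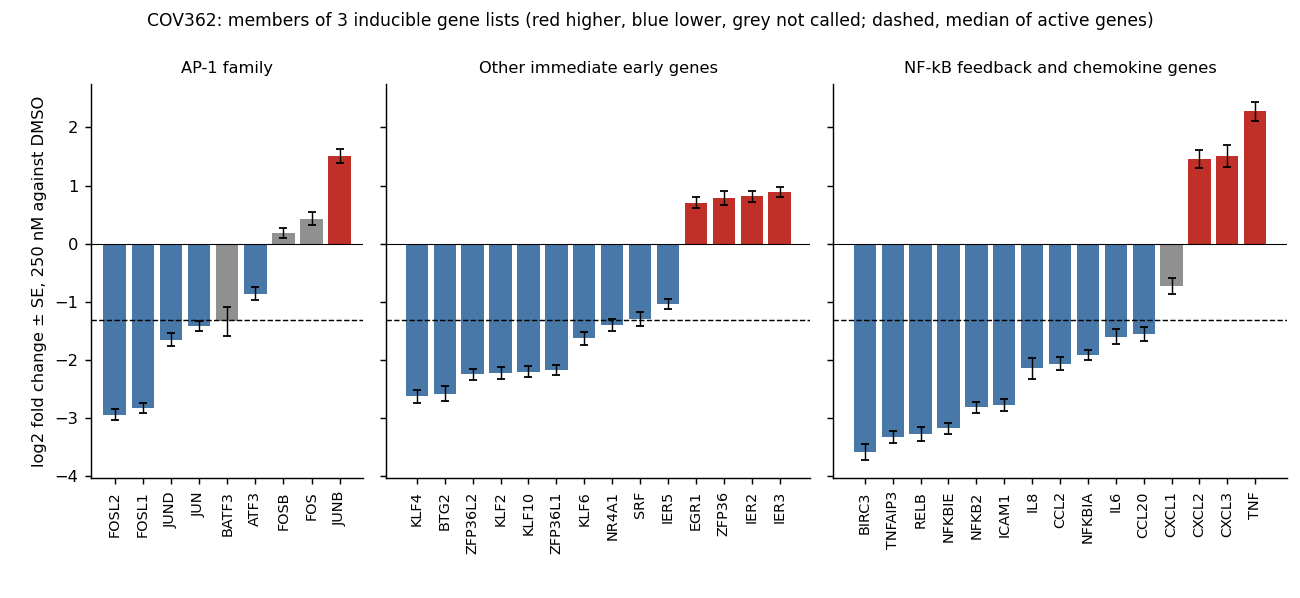
Bars give the log2 fold change at 250 nM against DMSO and error bars its SE for the tested members of the AP-1 family (9), the other immediate early genes (14) and the NF-kB feedback and chemokine genes (15), with red for called higher, blue for called lower, grey for not called and a dashed line at the median of active genes. JUNB, 4 immediate early genes and TNF, CXCL3 and CXCL2 stand above 0 in lists whose other called members are below it.

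The kinases that THZ1 binds were lower in the mRNA as well. CDK7 measured 44.7 and 47.4 FPKM in DMSO, 17.6 and 20.7 at 50 nM and 7.18 and 6.45 at 250 nM, a fall of 2.59 on the log2 scale (SE 0.108, limma adjusted p = 1.03e-06). CDK12 went from 18.1 and 19.9 FPKM to 3.17 and 3.07 (-2.28), and CDK13 from 17.5 and 18.4 to 2 and 2.04 (-2.65). The treated and DMSO libraries of all 3 kinases were far apart, and each stayed lower on the median-of-ratios scale (-1.15, -0.96 and -1.43). CDK7 had the largest fall of the 10 genes of TFIIH and the CDK-activating kinase, all of which were called lower, while its partners CCNH and MNAT1 had smaller falls (-1.51 and -1.63). That list had a median of -1.57 (-0.09 on the median-of-ratios scale).

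Of the 8 genes of CDK9, CDK12 and CDK13 with their cyclins and inhibitors, 8 were called lower, which like the other counts of this paragraph is near the background of 96.8% at 10 to 30 FPKM, with a median of -2.11 (-0.69 on the median-of-ratios scale). Cyclin T1 (CCNT1), the cyclin of CDK9, fell most, from 21 and 22.4 FPKM to 1.85 and 1.72 (-3.03), and its relative CCNT2 fell least (-1.47). The 17 pausing and elongation factors were all called lower (median -1.56, and -0.14 on the median-of-ratios scale), from LEO1 of the PAF complex (-3.25) to SUPT5H (-0.99, and 0.56 on the other scale). The 12 RNA polymerase II subunit genes were all called lower with a median of -1.11, a smaller fall than the median gene, and that median was 0.43 on the median-of-ratios scale. POLR2A, the catalytic subunit, was at 54.1 and 60.0 FPKM in DMSO, 61.4 and 58.9 at 50 nM and 22.3 and 24.8 at 250 nM (-1.24, and 0.29 on the median-of-ratios scale), so its level was within the DMSO range in 1 library and just above it in the other at the lower dose. Among the 7 BET and histone acetyltransferase genes, all called lower (median -2.25, and -0.86 on the other scale), EP300 fell by 2.72 and KAT2A by 0.56. The KAT2A value was 0.94 on the other scale, and its call was lost without any 1 of the DMSO or 250 nM libraries. All 5 genes of the Mediator kinase module were called lower (median -1.36, and -0.01 on the other scale), from MED13 (-2.82) to CDK19, the least changed (0.14 on the other scale).

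MYC and MCL1, the genes the study followed, were also called lower. MYC measured 165 and 180 FPKM in DMSO, 105 and 107 at 50 nM and 43.6 and 43.5 at 250 nM (-1.96 ± 0.0796, limma adjusted p = 9.76e-07). MCL1 measured 171 and 196 FPKM in DMSO, 72.4 and 86.3 at 50 nM and 43.2 and 40.1 at 250 nM (-2.11 ± 0.116, limma adjusted p = 2.27e-06). Both genes stepped down with dose without overlap, and on the median-of-ratios scale MCL1 was still called lower (-0.56) and MYC was not (-0.41). The MYC, MAX and MXD network had 10 of 10 genes called lower with a median of -1.79 (-0.43 on the other scale), MAX falling by 2.01 and MLX, at the low end, by 2.59.

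In KURAMOCHI, whose table was normalized separately, the same dose gave -4.23 for MYC, -3.21 for MCL1 and -2.44 for CDK7 against its own DMSO libraries, and the median over the same 14251 genes was -1.11. The difference between the lines was not tested.

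FADD, DKK1 and ANKRD1 had the largest falls of the protein-coding genes called lower. By the naming rule, the 15 largest falls among called genes held 12 rows of small RNA and 3 protein-coding genes. FADD (chr11:70049402-70053496), the adaptor that links death receptors to caspase 8, went from 98 and 102 FPKM in DMSO to 12.2 and 14.8 at 50 nM and 1.62 and 1.89 at 250 nM (-5.19 ± 0.115, limma adjusted p = 8.16e-07). DKK1 (chr10:54074041-54077802), a secreted WNT antagonist, went from 72.0 and 74.6 FPKM to 1.23 and 0.845 (-5.19 ± 0.138, limma adjusted p = 8.16e-07). ANKRD1 (chr10:92671853-92680844), a target of YAP, went from 295 and 338 FPKM to 10.2 and 7.82 (-4.99 ± 0.142, limma adjusted p = 8.16e-07). All 3 stayed lower on the median-of-ratios scale (-4.02, -4.20 and -3.52). DKK1 was near the floor in KURAMOCHI, where its DMSO libraries both read 0.120 FPKM, whereas FADD (-5.11) and ANKRD1 (-5.15) were called lower there too.

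Other protein-coding genes with falls beyond 4 on the log2 scale, picked after their values were seen, included HJURP (-4.64), the chaperone of the centromeric histone, FBXO5 (-4.43), an inhibitor of the anaphase-promoting complex, XBP1 (-4.35), a factor of the unfolded protein response, and PNRC2 (-4.23), a cofactor of mRNA decapping. PPP1R10, a nuclear regulator of protein phosphatase 1, was at 25.6 and 28.4 FPKM in DMSO, 1.21 and 1.07 at 50 nM and 0.469 and 0.551 at 250 nM, so most of its fall of 4.21 was already present at the lower dose (-3.71).

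Genes that protect from apoptosis and genes that promote it were called lower at shares near the background of 84% over all active genes and 97.4% over those of 30 to 100 FPKM in DMSO. BCL2L1, which encodes BCL-XL, fell from 142 and 157 FPKM to 28.4 and 29.6 (-2.32 ± 0.0874, limma adjusted p = 9.04e-07), and with MCL1 it was among the 4 of 5 survival genes of the BCL2 family called lower. BCL2 itself was low, at 2.94 and 2.39 FPKM in DMSO and 1.35 and 0.994 at 250 nM, and was not called (-0.76, and 0.28 on the median-of-ratios scale). It was called lower without either 50 nM library. The survival genes had a median of -1.33 and the 10 death genes of the family, all called lower, a median of -1.55 (-0.47 and -0.17 on the median-of-ratios scale). BMF fell most of the death genes (-3.11) and BAD least (-0.88, and 0.67 on the median-of-ratios scale). All 5 caspase inhibitors were called lower with a median of -2.27 (-1.07 on the other scale), from BIRC3 at -3.59 through XIAP at -2.27 to BIRC5 at -1.05 (0.50 on the other scale). The 11 p53 targets were all called lower (median -1.72, and -0.40 on the other scale), among them MDM2 (-2.02), CDKN1A (-1.72) and the death receptor FAS (-2.82).

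By list median, mitotic genes fell further than replication genes, a difference that was not tested. All 20 mitotic kinase and spindle genes were called lower, near the background of 96% at 100 to 300 FPKM, and all 20 lay below the median of active genes, with a list median of -2.38 (-0.88 on the median-of-ratios scale). AURKA went from 134 and 148 FPKM in DMSO to 37.4 and 43.8 at 50 nM and 6.38 and 6.16 at 250 nM (-4.29 ± 0.104, limma adjusted p = 8.16e-07). PLK1 fell by 2.84 and CDK1 by 2.47, and KIF20A fell least (-1.46, and 0.09 on the other scale). The 23 DNA replication genes were also all called lower but had a median of -1.50 (0.05 on the other scale), from CDC6 (-2.83) to POLD1 (-0.89, and 0.63 on the other scale), whose call was lost without either DMSO library.

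In G1 control 9 of 10 genes were called lower (median -1.98, and -0.44 on the other scale). Cyclin E1 (CCNE1) fell from 54.8 and 57.5 FPKM to 5.76 and 5.68 (-3.09) and cyclin D1 (CCND1) from 392 and 446 to 102 and 103 (-2.02), whereas CDK4 went from 296 and 324 to 151 and 161 (-0.98, and 0.58 on the other scale). E2F3 fell most (-3.33), E2F1 fell by 1.95 and RB1, at 1.24 and 1.57 FPKM in DMSO and 0.773 and 0.960 at 250 nM, was not called (0.58 on the other scale).

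The counts for DNA repair genes were near the background, since 96.8% of active genes of 10 to 30 FPKM in DMSO were called lower. Of 21 homologous recombination and Fanconi genes, 20 were called lower with a median of -1.68 (-0.27 on the median-of-ratios scale). PALB2 fell most, from 10.4 and 11.7 FPKM to 0.366 and 0.349 (-3.15), beside BRCA1 (-1.68) and BRCA2 (-1.84). The 12 DNA damage kinases and mediators were all called lower (median -1.94, and -0.65 on the other scale). The checkpoint kinase WEE1 fell from 24 and 25.7 to 1.30 and 1.16 FPKM (-3.54), CHEK1 fell by 1.91 and ATM by 0.77 (0.54 on the other scale). The ATM call was lost without either DMSO library and without replicate 2 of the 250 nM libraries.

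Feedback genes of growth factor signalling had the lowest list median. All 15 ERK feedback genes were called lower, near the background of 96.8% at 10 to 30 FPKM, with a median of -2.62 (-1.31 on the median-of-ratios scale). The phosphatase gene DUSP1, an immediate early gene like EGR1, fell from 31.0 and 32.8 FPKM to 1.83 and 2.21 (-3.45), and DUSP6, which acts on ERK, fell by 2.77. SPRY4 was the exception at the other end, with 22.7 and 24.2 FPKM in DMSO, 14.9 and 14.4 at 50 nM and 16.2 and 16.4 at 250 nM (-0.50, and 1.01 on the other scale), and its call was lost without any 1 of the DMSO or 250 nM libraries. Of 12 receptor tyrosine kinase genes, 10 were called lower (median -1.3, and -0.03 on the other scale), MET falling by 2.35. The 10 YAP targets were all called lower (median -2.01, and -0.56 on the other scale). Of 10 TGF-beta feedback genes 8 were called lower (median -1.84, and -0.57 on the other scale), TGIF1 falling by 3.29 while ID2, at 13.7 and 16.1 FPKM in DMSO and 13.3 and 11.7 at 250 nM, was not called (1.26 on the other scale).

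No member of the stress response lists was called higher on the spike-in scale, and 3 heat shock and 3 NRF2 target genes were on the median-of-ratios scale. All 12 ATF4 response genes were called lower, near the background of 97.4% at 30 to 100 FPKM, with a median of -2.36 (-1.17 on the median-of-ratios scale), and DDIT3, which encodes CHOP, went from 54.3 and 58.0 FPKM to 2.43 and 1.58 (-4.26 ± 0.160, limma adjusted p = 9.04e-07). All 14 heat shock genes were called lower with a median of -1.43 (0.13 on the other scale), but their values were widely spread. The cochaperone gene DNAJB1 went from 157 and 171 FPKM to 8.31 and 8.35 (-4.14), and HSPA8, the constitutive HSP70, from 1278 and 1419 to 104 and 99.2 (-3.71). HSPA1A fell by 2.33, while HSP90AB1 fell by 0.99 (0.58 on the other scale) and HSPB1 by 0.78 (0.79 on the other scale), a call that was lost without either DMSO library and without replicate 1 of the 250 nM libraries. The 10 NRF2 targets were all called lower (median -1.41, and -0.41 on the other scale), GCLC of glutathione synthesis falling by 3.01. Of 15 cholesterol synthesis genes 13 were called lower (median -1.76, and -0.26 on the other scale).

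Lineage markers differed among themselves. PAX8, a transcription factor of the Müllerian epithelium, fell from 120 and 128 FPKM in DMSO to 29.5 and 29.6 at 50 nM and 16.4 and 17.3 at 250 nM (-2.81 ± 0.0798, limma adjusted p = 8.16e-07), and SOX17 fell from 113 and 121 to 9.88 and 11.6 (-3.33). The keratin genes KRT7 (-1.18, and 0.39 on the median-of-ratios scale) and KRT8 (-0.69, and 0.88 on the other scale) had smaller changes, and the KRT8 call was lost without any 1 of the 6 libraries. Mesothelin (MSLN), at 103 and 110 FPKM in DMSO and 70.4 and 86.1 at 250 nM, was not called (1.11 on the other scale). Of the 20 epithelial and serous markers 19 were called lower, and their median was -1.02 (0.36 on the other scale). Of the 12 markers of fibroblasts, immune and endothelial cells, 7 were active and 4 were called lower (median -0.93, and 0.28 on the other scale).

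Falls were small in abundant mRNAs of metabolism and translation. The 83 cytoplasmic ribosomal protein genes tested had a median of -0.78, with 72 called lower and 11 not called, a share close to the 84% of all genes. Only 2 of the 83 lay below the median of active genes, and on the median-of-ratios scale their median was 0.79 and 74 were called higher. The 80 respiratory chain and ATP synthase genes had a median of -0.86 (75 called lower, 0.69 on the other scale), and the 17 glycolytic genes a median of -0.84 (15 called lower, 0.72 on the other scale). GAPDH measured 7828 and 8944 FPKM in DMSO and 5050 and 5707 at 250 nM, with no overlap, and did not pass the test (-0.64 ± 0.135, limma adjusted p = 0.00253, and 0.93 on the other scale), although it was called lower without DMSO replicate 1. Of the mitochondrial ribosomal protein genes 76 of 76 were called lower, with a median of -1.51 (0.04 on the other scale). Their median DMSO level was 94.8 FPKM against 2603 for the cytoplasmic ones. All active genes of 30 to 100 FPKM and of 1000 FPKM and more had medians of -1.55 and -0.83 (-0.04 and 0.74 on the other scale). The difference between these lists was not tested.

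The naming rule also took the 10 genes of at least 500 FPKM in DMSO with the least change. They were MDK (-0.52), COX8A, CRIP1, MIF (-0.58 each), IFI27 (-0.59), FAU, TXN, RPS2, PPP1R14B (-0.61 each) and FTL (-0.62), all of them between 0.95 and 1.05 on the median-of-ratios scale. FTL, the light chain of ferritin, was the member of these 10 that was called lower, with 1063 and 1205 FPKM in DMSO and 727 and 744 at 250 nM. Its call was lost without either 50 nM library and without either 250 nM library, while FAU was called lower without DMSO replicate 1 and PPP1R14B without replicate 2 of the 250 nM libraries. Midkine (MDK) went from 705 and 751 to 470 and 550 FPKM without overlap and was not called.

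RNA processing genes ranged between these ends. Splicing factor and hnRNP genes had a median equal to that of all genes (-1.31, 55 of 56 called lower, and 0.25 on the other scale), proteasome and translation factor genes had smaller falls (both -1.14 with 37 of 37 and 18 of 18 called lower, and both 0.42 on the other scale). Cleavage and polyadenylation factors (16 of 16 called lower, median -1.87, and -0.36 on the other scale) and mRNA decay and exosome genes (22 of 22, median -2.04, and -0.62 on the other scale) had larger ones. CSTF1, a subunit of the cleavage stimulation factor, fell from 32.4 and 36.8 to 1.05 and 0.768 FPKM (-4.22). Of 455 ZNF zinc finger genes tested 437 were called lower, with a median of -1.74 (-0.91 on the other scale), and 327 of them lay below the median of active genes.

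**Figure D4:**
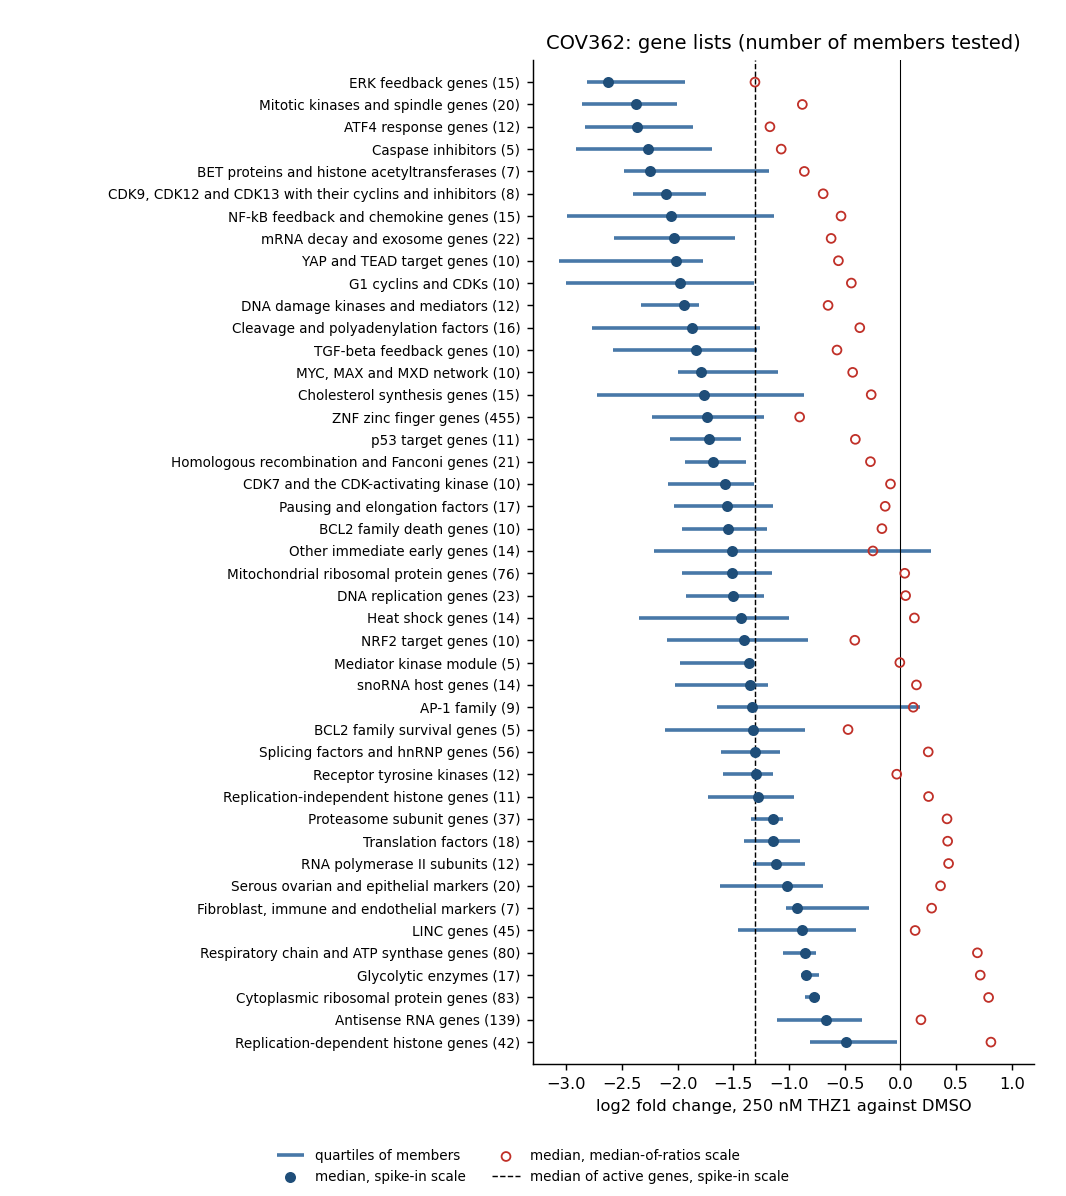
For each gene list with at least 5 members tested, leaving out the small RNA rows, the filled point is the median log2 fold change at 250 nM THZ1 on the spike-in scale, the bar spans its quartiles, and the open circle is the median on the median-of-ratios scale. The dashed line is the median of active genes, -1.31, and the lists run from ERK feedback genes at -2.62 to replication-dependent histone genes at -0.49.

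The change varied with the DMSO level and, less, with the length of the gene. By DMSO level the median log2 fold change was -0.72 at 1 to 3 FPKM, -1.41 at 3 to 10, -1.70 at 10 to 30, -1.55 at 30 to 100, -1.25 at 100 to 300, -1.04 at 300 to 1000 and -0.83 at 1000 FPKM and more. On the median-of-ratios scale these medians were, in the same order, 0.09, -0.30, -0.32, -0.04, 0.31, 0.52 and 0.74. The values below 3 FPKM are compressed by the added 1 of the log2(FPKM + 1) scale. Within 6405 protein-coding genes of 10 to 100 FPKM in DMSO, the median was -1.47 for genes under 5 kb (0.0044 on the median-of-ratios scale), -1.73 at 50 to 100 kb, -1.68 at 100 to 200 kb and -1.56 at 200 kb and more, so it did not move steadily with length. Spearman's rho of the log2 fold change across genes was -0.061 with gene length and 0.087 with the DMSO level. Over genes of at least 10 FPKM in DMSO, which include the most abundant ones, rho was -0.138 with gene length and 0.239 with the DMSO level. Genes are not independent replicates, and these values are descriptions.

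By median, genes with few exons fell furthest among the protein-coding genes of 10 to 100 FPKM. Spearman's rho of the log2 fold change with exon number was 0.112 in that set. It was 0.026 over genes of at least 10 FPKM in DMSO, so the relation by rank was weak. The median was -2.10 in 105 genes whose canonical transcript has 1 exon, -2.38 in 235 genes with 2 exons and -1.97 in 328 genes with 3 exons, against -1.60 with 4 to 5 exons, -1.60 with 6 to 10, -1.62 with 11 to 20 and -1.59 with 21 or more. The order was the same on the median-of-ratios scale, with -0.70, -1.02 and -0.56 for 1, 2 and 3 exons and -0.15 for 4 to 5. Among the genes called higher, JUNB and EID3 have 1 exon in the canonical transcript, IER2, IER3, EGR1, ZFP36 and GAS5-AS1 have 2, TCTEX1D4 has 3, TNF, CXCL2 and CXCL3 have 4, and the readthrough rows TGIF2-C20orf24 and MSH5-SAPCD1 have 5 and 29.

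**Figure D5:**
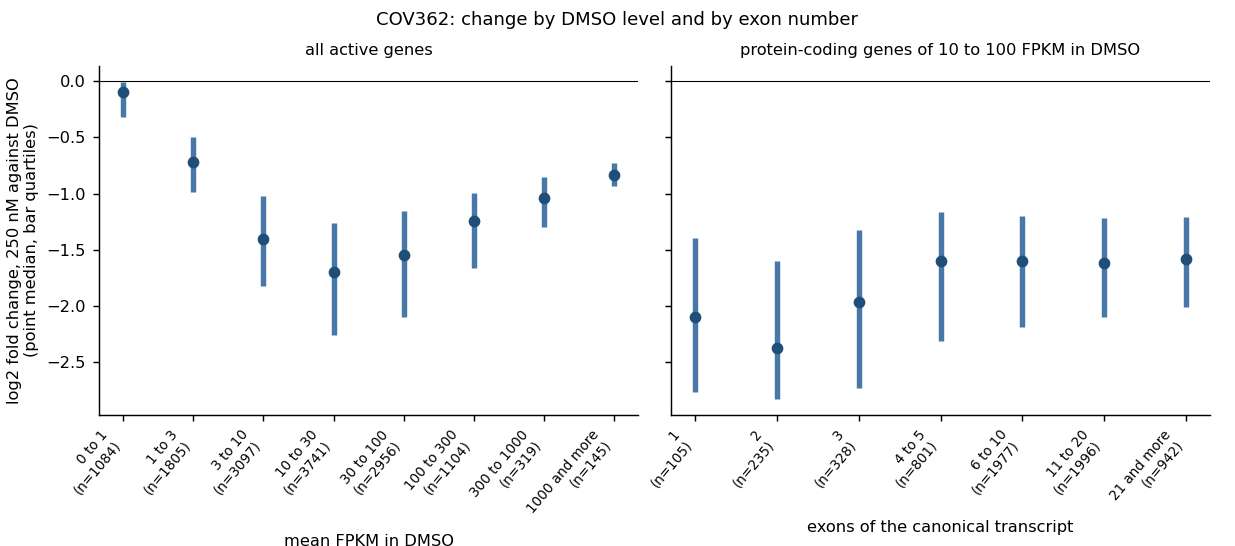
Points are the median and bars the quartiles of the log2 fold change at 250 nM THZ1, on the left for all active genes by their mean FPKM in DMSO and on the right for protein-coding genes of 10 to 100 FPKM by the number of exons. The left panel dips to -1.70 at 10 to 30 FPKM and returns to -0.83 at 1000 FPKM and more, and the right panel is lowest at 2 exons, -2.38.

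Long intergenic and antisense RNA genes were mostly at low levels. Of all active genes of 1 to 3 FPKM in DMSO, 61.4% were called lower (median -0.72, and 0.09 on the median-of-ratios scale). Of those of 3 to 10 FPKM, 90.4% were called lower (median -1.41). Of 45 long intergenic RNA genes (LINC), with a median DMSO level of 3.65 FPKM, 30 were called lower (median -0.88, and 0.13 on the median-of-ratios scale), LINC00657 falling from 108 and 127 FPKM to 12.4 and 11.5 (-3.20). The share of LINC genes called lower was below the 90.4% of all active genes of 3 to 10 FPKM. Of 139 antisense RNA genes, with a median DMSO level of 2 FPKM, 71 were called lower and 1 higher (median -0.67, and 0.18 on the other scale), values near those of all genes of 1 to 3 FPKM. Of 14 snoRNA host genes, with a median DMSO level of 110 FPKM, 13 were called lower (median -1.35, and 0.14 on the other scale). SNHG12 fell by 2.76. SNHG9, at 169 and 207 FPKM in DMSO and 182 and 157 at 250 nM, overlapped and was not called. On the other scale SNHG9 was at 1.42 and called higher. Of 42 replication-dependent histone genes, whose mRNAs lack a polyA tail and whose median DMSO level was 5.16 FPKM, 9 were called lower (median -0.49, and 0.81 on the other scale). Their share, too, was well below the 90.4% of all active genes of 3 to 10 FPKM. Of 11 replication-independent histone genes 9 were called lower (median -1.28, and 0.25 on the other scale).

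Among 256 active rows of small RNA (snoRNA and microRNA genes), 134 stood at or below the floor in both 250 nM libraries, 94 had DMSO values that differed by over 2 times between replicates, and 60 had values equal, to 4 decimals, to those of another row in all 6 libraries. Of 97 box H/ACA rows tested 11 were called lower (median -1.23, and 0.06 on the other scale), of 52 box C/D rows 9 were called lower (median -1.02, and -0.48 on the other scale), and of 107 microRNA rows 9 were called lower and 2 higher (median -0.01, and 0.23 on the other scale). These medians were unstable. Over single pairings of a treated with a DMSO library they ran from -1.28 to -0.05 (H/ACA), -0.07 to -0.03 (C/D) and -0.04 to -0.02 (microRNA). SNORD45C, for example, read 1366 and 1188 FPKM in DMSO and 0.0663 and 0.0709 at 250 nM, and SNORD104 and SNORD99 both read 837 and 725 FPKM in DMSO. MIR3648, a row of 180 bases, read 0.185 and 0.198 FPKM in DMSO, 136 and 151 at 50 nM and 283 and 481 at 250 nM. MIR4644, a row of 84 bases, read 0.148 and 0.160 FPKM in DMSO and 255 and 558 at 250 nM, with 0.106 and 0.119 at 50 nM. The reads were 75 bases long, so few reads can lie wholly within a row of this length.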

How the data were processed

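PolyA RNA of COV362 and KURAMOCHI cells was sequenced in 12 libraries, 2 per line and treatment (DMSO, 50 nM and 250 nM THZ1, 6 hr), as stranded single-end reads of 75 bases. Per the labels and the study's methods, HISAT was used by the authors for alignment (hg19), cuffquant and cuffnorm of Cufflinks gave the FPKM, and the deposited FPKM had been normalized to ERCC spike-ins. Versions are not given in the sources used here, and depth is unknown.

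Values were tested as log2(FPKM + 1) with limma 3.58.1 (trended empirical Bayes, R 4.3.3), with a term per treatment over the 6 COV362 libraries and Benjamini-Hochberg adjustment over the 14251 genes above 1 FPKM in at least 1 of the 12 libraries. Calls needed an adjusted p under 0.001 and a change of over 0.5 in size on the log2 scale. For 1 gene, the smallest two-sided p of an exact permutation test in this design is 0.333. KURAMOCHI was fitted separately in the same way.

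Gene positions and exon numbers come from GENCODE 44 on GRCh37, matched by symbol (20503 direct, 1542 by synonym, 1574 unmatched). The members and the 47 gene lists were chosen with earlier results of these data known. Named genes were every gene called higher, the 15 largest falls among called genes without overlap, the 10 least changed genes of at least 500 FPKM, MYC, MCL1, CDK7, CDK12 and CDK13, and the lowest and highest member of each list (mean of at least 1 FPKM in either group). Other genes were named after their values were seen, and some genes are not reported here. Alternatives were other pseudocounts, minimums, scaling, thresholds, libraries, a fit without trend and a replicate block.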

Additional observations from a re-analysis of the deposited data

Results flagged for a closer look

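Of the genes named by rule and above 1 FPKM in both libraries of a treatment in each line, 6 moved one way in every pairing of libraries in COV362 and the opposite way in every pairing in KURAMOCHI at 250 nM. The 2 tables were normalized separately, and the difference between the lines was not tested. These directions are on the spike-in scale, since the median-of-ratios scaling was not run for KURAMOCHI. The median over the 14251 active genes there was -1.11. The KURAMOCHI falls of EID3, JUNB, CXCL2 and IER2 were smaller than that median, and those of ZFP36 and EGR1 were larger. The log2 fold change of EID3 was 1.78 in COV362 and -0.81 in KURAMOCHI, where the gene went from 1.83 and 1.53 FPKM in DMSO to 0.548 and 0.511. JUNB was at 1.51 and -0.59, CXCL2 at 1.46 and -1.02, and IER2 at 0.81 and -0.84, and none of the KURAMOCHI values of these 3 genes passed the test. ZFP36 was at 0.78 in COV362 and -1.95 in KURAMOCHI, and EGR1 at 0.71 and -2.71, with the KURAMOCHI falls called in both. EGR1 measured 23.2 and 20.7 FPKM in KURAMOCHI DMSO libraries and 2.03 and 3.02 at 250 nM, against 7.40 and 6.96 rising to 12.1 and 12.6 in COV362.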

How the results depend on the processing

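The number of genes called lower (11971) stayed within 1.5 times of its value under every alternative run except the median-of-ratios scaling (2842), and leaving out each COV362 library in turn gave 10451 to 12341. The number called higher (15) became 1064 under that scaling, 23 with only the 4 libraries of DMSO and 250 nM, 26 at an adjusted p under 0.05 and 8 at a log2 fold change beyond 1. Leaving out single libraries gave 11 to 29 genes called higher, with 29 without replicate 1 and 26 without replicate 2 of the 250 nM libraries and 23 without either 50 nM library. The median log2 fold change (-1.31) was -1.55 with a pseudocount of 0.1, -1.50 with a minimum of 10 FPKM, -0.70 with no minimum and -0.0231 under the median-of-ratios scaling. The last follows from the construction of that scaling, and the other causes were not tested. Samples with the same replicate number did not deviate together (correlations of -0.070, 0.028 and -0.051), so no shift shared by replicate number was seen. With 2 libraries per group, these correlations cannot tell whether libraries of the same number came from the same culture. With the replicate block 11202 genes were called lower and 10 higher, and the calls of EGR1, ZFP36, MSH5-SAPCD1, TCTEX1D4 and TGIF2-C20orf24 were lost. A pseudocount of 0.1 and the fit without trend each lost MSH5-SAPCD1 and TCTEX1D4.

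Under the median-of-ratios scaling, which multiplies all genes of a library by the same factor, the sign turned for 55 named genes. Their log2 fold changes there were SNHG9 (1.42), ID2 (1.26), ATP5EP2 (1.12), MSLN (1.11), ZNF460 (1.09), MDK (1.05), SPRY4 (1.01), COX8A (0.99), CRIP1 (0.99), MIF (0.99), IFI27 (0.98), FAU (0.96), TXN (0.96), RPS2 (0.96), PPP1R14B (0.96), FTL (0.95), KAT2A (0.94), LSS (0.94), GAPDH (0.93), KRT8 (0.88), ENO2 (0.87), SNRPN (0.84), PSMA7 (0.83), EEF1D (0.83), CXCL1 (0.79), HSPB1 (0.79), RAD51B (0.76), MRPL23 (0.76). Further down they were CPSF6 (0.74), POLR2F (0.72), H2AFJ (0.69), BAD (0.67), EXOSC5 (0.66), POLD1 (0.63), ATF3 (0.61), COL1A2 (0.60), CDK4 (0.58), HSP90AB1 (0.58), RB1 (0.58), SUPT5H (0.56), ATM (0.54), BIRC5 (0.50), PHGDH (0.48), KRT7 (0.39), AXL (0.30), POLR2A (0.29), BCL2 (0.28), GTF2H5 (0.26), MNT (0.24), CDH5 (0.20), CDK19 (0.14), JUN (0.12), KIF20A (0.0900), HIST2H4A (0.046) and FGFR3 (0.0011). Leaving out 1 library turned the sign of 4 named genes, none of which was called with all libraries, and PCNA-AS1 was called higher without replicate 1 of 250 nM. Their log2 fold changes ran from -0.289 to 0.00469 for SNHG9 (highest without DMSO replicate 2), from -0.0627 to 10.55 for SNORD84 (lowest without replicate 1 of 250 nM), and, with the turn without replicate 2 of 250 nM, from -0.145 to 0.0029 for ZNF460 and from -0.0472 to 3.29 for PCNA-AS1.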

Other observations

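A few further rows are given here, some of them small RNA rows whose values stood far apart between libraries. MIR663A read 0.184 and 119 FPKM in the 2 DMSO libraries of COV362, 7869 and 4956 at 50 nM and 10373 and 20984 at 250 nM, and was not called at 250 nM (10.27 ± 1.83), although it was called higher without either DMSO library and without either 50 nM library. In KURAMOCHI it read 0.172 and 0.158 FPKM in DMSO and 2607 and 2798 at 250 nM. SNORD84 read 1716 FPKM in 1 of the 250 nM libraries of COV362 and 0.0936 in the other. SAT1, which encodes the spermidine acetyltransferase of polyamine breakdown, was among 11 genes of at least 10 FPKM in DMSO with a log2 fold change above 0, at 28.8 and 32.3 FPKM in DMSO, 39.7 and 48.0 at 50 nM and 35.8 and 32.8 at 250 nM, and was not called (0.16). The other 10 were IER2, IER3, JUNB, ZFP36, SNORA65 and the microRNA rows MIR137, MIR600, MIR661, MIR662 and MIR663A.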
